A study of Drosophila melanogaster with 8 samples.

Results

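Cholinergic neurons of wandering larvae of *Drosophila melanogaster* were compared with glutamatergic neurons of the same libraries, by single-nucleus RNA sequencing. The nuclei were chosen by their own transmitter genes within the 5 clusters that the authors named as neurons (clusters 6, 10, 17, 20 and 25). A nucleus counted as cholinergic when its corrected counts of *VAChT* and *ChAT* summed to 0.5 or more and *VGlut* was below 0.1. It counted as glutamatergic when *VGlut* was 0.5 or more and *VAChT* plus *ChAT* was below 0.1. This gave 684 cholinergic and 345 glutamatergic nuclei, together 1029 of the 4080 neuron nuclei and of the 30819 nuclei of the whole series. All nuclei came from 1 genotype, *w1118*, a laboratory strain with white eyes. By the labels, each of the 8 libraries was a pool of 16 wild type whole larvae, 8 male and 8 female, raised at 25 °C for 5 days after egg deposition. There was no treatment, and the animals were not dissected, so neurons of the brain, the ventral nerve cord and the body wall could all be pooled in each library. Counts had been corrected for ambient RNA by the authors and need not be whole numbers, and nuclear RNA alone was measured.

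Acetylcholine is the main excitatory transmitter of the fly central nervous system, and it is also used by most sensory neurons. Glutamate is the transmitter of the motor neurons at the neuromuscular junction and of many central interneurons, where it often inhibits through a chloride channel. *ChAT* codes for the enzyme that makes acetylcholine, *VAChT* for the transporter that loads it into synaptic vesicles, and *VGlut* for the transporter that loads glutamate. *VAChT* lies within the *ChAT* locus on chromosome arm 3R and starts at the same base (18705501), whereas *VGlut* lies on arm 2L (2400295 to 2410662, plus strand, BDGP6.54 annotation). In the nerve cord, sister neurons from the same branch of a stem cell lineage usually share their transmitter and a set of transcription factors.

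The 3 selection genes show what the selection rests on, and their levels are given as a description only. Of the cholinergic nuclei, 393 held *VAChT* at 0.5 or more, 421 held *ChAT* and 131 held both. The median cholinergic nucleus had 0.999 corrected counts of *VAChT* plus *ChAT*, and the median glutamatergic nucleus had 1.98 of *VGlut*. The values left a gap at the threshold, since the lowest cholinergic nucleus had 0.595 and the highest value below the threshold was 0.128. The lowest glutamatergic nucleus had 0.886, with 0 nuclei between 0.1 and 0.5. *VAChT* was at 431, 593 and 808 CPM (counts scaled to 1000000 per sum) in the lowest, median and highest library's cholinergic sum, and *ChAT* was at 568, 672 and 943 CPM. *VGlut* was at 1119, 1845 and 2156 CPM in the glutamatergic sums. Outside the neuron clusters, 0.262% of nuclei held *VAChT*, 0.157% *ChAT* and 0.213% *VGlut* at 0.5 or more, at a median depth of 960 unique molecular identifiers (UMIs, each marking 1 RNA molecule). A further 3010 neuron nuclei held neither marker at these thresholds and 40 held both. Nuclei of neither group are called other neurons below and had a median depth of 811 UMIs.

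Both groups had nearly the same median depth and similar shares of nuclei in each cluster. The median nucleus had 1017 UMIs in the cholinergic and 1020 UMIs in the glutamatergic group. Cluster 6 held 45.3% of the cholinergic and 45.8% of the glutamatergic nuclei, cluster 10 held 37.4% and 39.1%, and cluster 25 held 14.6% and 11.3%. Of the summed UMIs, which the tests use, cluster 25 gave 19.7% in the cholinergic and 14.2% in the glutamatergic group, and cluster 10 gave 38.1% and 43.1%. Clusters 17 and 20 together gave 18 cholinergic and 13 glutamatergic nuclei. Per library there were 46 to 108 cholinergic nuclei (51517 to 165549 UMIs) and 19 to 57 glutamatergic nuclei (21925 to 78372 UMIs), with the fewest of both in replicate 8. In all, the cholinergic group held 861255 UMIs and the glutamatergic group 428395 UMIs, so summed counts given below are to be read against these totals. The barcode of 4 cholinergic and 4 glutamatergic nuclei was also present in another library. Libraries of the whole series held 3090 to 5405 nuclei and 3815618 to 6488757 UMIs.

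**Figure D1:**
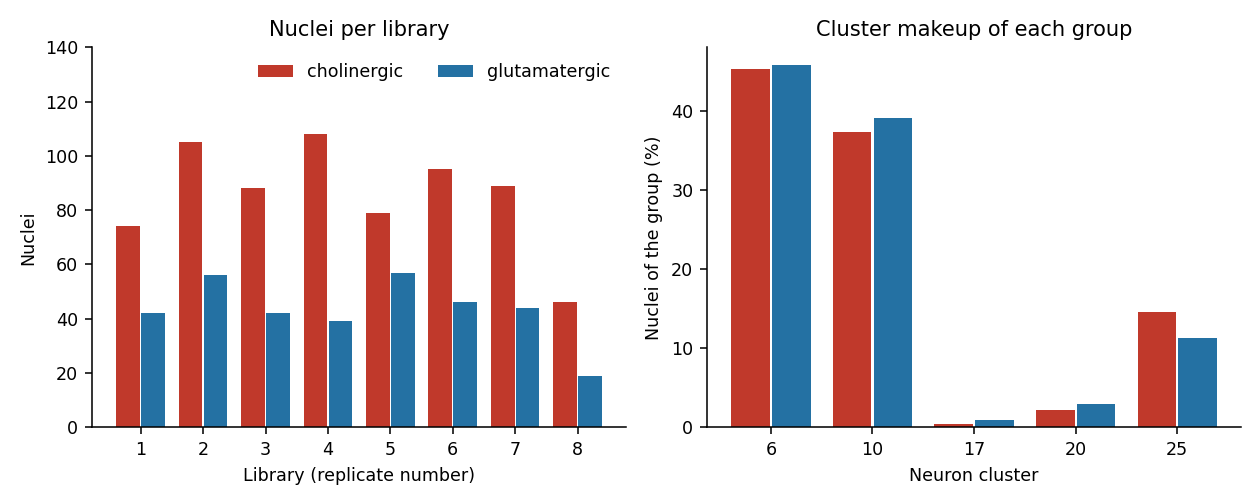
Nuclei of each group per library (left, bars from 0) and the share of each group's nuclei in the 5 neuron clusters (right, in percent). Every library had more cholinergic than glutamatergic nuclei (684 against 345 in all), while both groups were spread over clusters 6, 10 and 25 in similar shares.

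General neuronal genes were found in both groups. *elav*, an RNA-binding protein used as a marker of all neurons, was held by 56.9% of cholinergic and 57.7% of glutamatergic nuclei, against 6.96% of nuclei outside the neuron clusters. It was at 573, 842 and 1094 CPM in the lowest, median and highest cholinergic sum, against 530, 800 and 1136 CPM in the glutamatergic sums (log2 fold change -0.0069, SE 0.13). Of the 7 neuron markers, 6 were tested and 0 passed edgeR's test described below (1 at an unadjusted p below 0.05, 0 by DESeq2). Of the 7 glia markers, *gcm* was at 0 in both groups, and *repo* and *alrm* had 1.78 and 0.996 corrected counts in all cholinergic nuclei and 0 in all glutamatergic nuclei. The most abundant were *nrv2*, with 21.1 counts in cholinergic and 19.0 in glutamatergic nuclei, and *Gs2*, with 22.2 and 7.37. Of the hemocyte markers, *Hml* had 7.45 and 3.54 counts, *Pxn* 20.5 and 18.6, and *Ppn* 20.8 and 12.3. These counts are not scaled to depth, and the cholinergic group held more UMIs.

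The question was then which genes, outside the 3 selection genes, differ between the groups. All counts of a group were summed in each library, and the 16 sums were compared with edgeR's quasi-likelihood test, with the library as a block and p-values adjusted over all genes tested (Benjamini-Hochberg). Fold changes are cholinergic over glutamatergic. Few genes differed. Of 1232 genes with enough counts, 12 (0.974%) were higher and 15 (1.22%) were lower in cholinergic nuclei at an adjusted p below 0.05, or 2.19% in either direction. The log2 fold change was within 0.5 of 0 for 1128 genes (91.6%), and the median over all genes was -0.0051. The list members among the calls, 7 higher and 7 lower, were mostly transcription factors (*acj6*, *ap* and *Sox102F* higher, *svp*, *tup*, *oc* and *mirr* lower) and members of the dpr, DIP, beat and side families (*side-IV*, *side-VIII* and *dpr8* higher, *DIP-lambda*, *side-II* and *beat-Ia* lower). The lists differ in length and were chosen with earlier results of these data known, so where calls fall among them is a description. The calls outside these families belong to no list except *eys*, which was listed with the sensory neuron markers. The sign held in 8 of 8 libraries for 21 of the 27 genes and in 7 of 8 for the other 6. The low-count filter asked for enough counts in 8 of the 16 sums. *acj6*, *svp* and *CG46448* passed it through the group where they were high, and so, in the main, did *side-IV*, *lncRNA:CR44206*, *oc*, *Gfrl* and *ko*. The sign over libraries and the overlap of ranges also come from the same sums as the test. For every called gene they are therefore descriptions and no further support. Without any 1 library, 13 of the 27 stayed below 0.05, as did 2 more in the 6 of 8 refits whose filter retained them. The counts themselves moved with single libraries. Without replicate 1, 31 genes were higher and 21 lower, and 7 were higher without replicate 2, 3 or 5, with 9 lower without replicate 2 or 5.

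**Figure D2:**
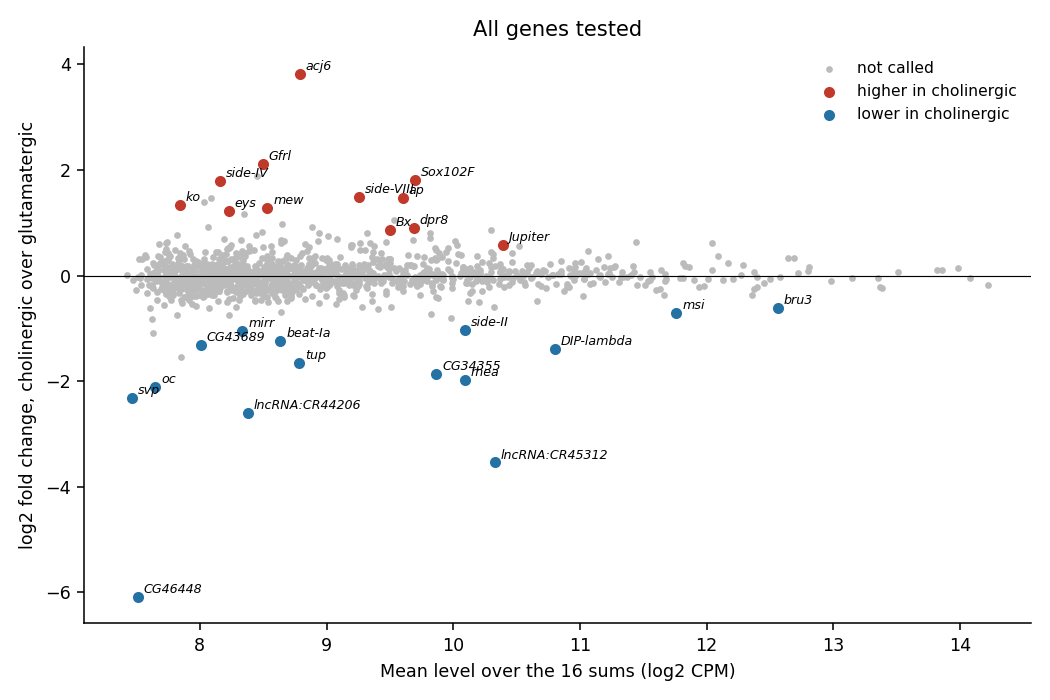
Each point is 1 of the 1232 genes tested, by its mean level over the 16 sums (x axis, log2 CPM) and its log2 fold change, cholinergic over glutamatergic (y axis). The 12 genes called higher and the 15 called lower in cholinergic nuclei are named, and the other genes lie in a band around 0.

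Among transcription factors, *acj6* stood farthest above in cholinergic nuclei. It codes for a POU-domain protein known to act on the cholinergic locus in flies and on odorant receptor choice. *acj6* was at 364, 539 and 741 CPM in the lowest, median and highest cholinergic sum, against 0, 0 and 198 CPM in the glutamatergic sums (log2 fold change 3.83, SE 0.60, adjusted p = 0.00323). The groups did not overlap, and *acj6* was listed above 0 in 2 of 8 glutamatergic sums, those of replicates 1 and 5. It was held by 14.2% of cholinergic nuclei (97 nuclei), 1.16% of glutamatergic nuclei (4), 6.03% of other neurons and 0.299% of nuclei outside the neuron clusters. A sum cannot tell fewer nuclei that use a gene from less RNA per nucleus, which is why such shares are given. The gene lies on the X chromosome (15350239 to 15379064, minus strand), and *Pp1-13C* overlaps it on the same strand.

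*ap* and *Sox102F* were also higher in cholinergic nuclei, with less even values over libraries. *ap* codes for a LIM-homeodomain protein that sets dorsal identity in the wing disc and is used by certain interneurons and peptide neurons. It was at 273, 910 and 1209 CPM in cholinergic sums, against 51.0, 276 and 783 CPM in glutamatergic sums (1.47, SE 0.32, adjusted p = 0.0302). The groups overlapped, and cholinergic was higher in 7 of 8 libraries. *Sox102F*, a SoxD-type HMG-box factor, was at 574, 866 and 1599 CPM in cholinergic sums, against 0, 263 and 808 CPM in glutamatergic sums (1.81, SE 0.42, adjusted p = 0.0429). It was higher in 8 of 8 libraries. Both calls were lost in 6 of the 8 refits without 1 library, with adjusted p up to 0.111 for *ap* (without replicate 8) and up to 0.141 for *Sox102F* (without replicate 7). *Bx* codes for a LIM-only protein known to compete with the Apterous protein for its cofactor in the wing. It was at 595, 703 and 1273 CPM in cholinergic sums, against 255, 345 and 722 CPM in glutamatergic sums (0.87, SE 0.15, adjusted p = 0.00798), and was higher in 7 of 8 libraries.

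The factors of cholinergic nuclei marked partly different nuclei. At 0.5 counts or more, 253 cholinergic nuclei held *ap*, 159 held *Sox102F* and 97 held *acj6*. Both *ap* and *Sox102F* were found in 88 nuclei, *acj6* and *Sox102F* in 25, and *acj6* and *ap* in 20. At least 1 of the 3 was held by 55.1% of cholinergic nuclei and by 21.7% of glutamatergic nuclei.

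In glutamatergic nuclei 4 transcription factors were higher, namely *tup*, *svp*, *oc* and *mirr*. *tup* codes for the LIM-homeodomain protein Islet, which is needed for the identity of a set of motor neurons. It was at 112, 169 and 293 CPM in cholinergic sums, against 218, 588 and 749 CPM in glutamatergic sums (-1.66, SE 0.21, adjusted p = 0.000429). Glutamatergic was higher in 8 of 8 libraries, and only replicate 1, at 218 CPM, fell within the cholinergic range. *svp*, a nuclear receptor of the COUP-TF family used as a timing factor in neural stem cells, was at 0, 40.4 and 88.8 CPM in cholinergic sums, against 138, 232 and 333 CPM in glutamatergic sums (-2.31, SE 0.29, adjusted p = 0.000429). The groups did not overlap. *svp* shares its strand with *CG17738*, which overlaps it on arm 3R.

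*oc*, a homeodomain factor of head and brain development also known as orthodenticle, was at 13.3, 52.0 and 215 CPM in cholinergic sums, against 141, 267 and 507 CPM in glutamatergic sums (-2.10, SE 0.41, adjusted p = 0.0142). The highest cholinergic value was that of replicate 1, the 1 library in which cholinergic was higher. *mirr*, an Iroquois-type homeodomain factor known from dorsal eye identity, was at 117, 143 and 344 CPM in cholinergic sums, against 171, 325 and 601 CPM in glutamatergic sums (-1.04, SE 0.22, adjusted p = 0.0239). Its call was lost in 6 of the 8 refits without 1 library (adjusted p up to 0.0681, without replicate 2). Of the glutamatergic nuclei 90 held *tup*, 59 *svp*, 56 *oc* and 54 *mirr*, with 23 holding *tup* and *svp*, 13 *svp* and *oc*, and 4 *tup* and *oc*. At least 1 of the 4 was held by 57.4% of glutamatergic and 21.5% of cholinergic nuclei.

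**Figure D3:**
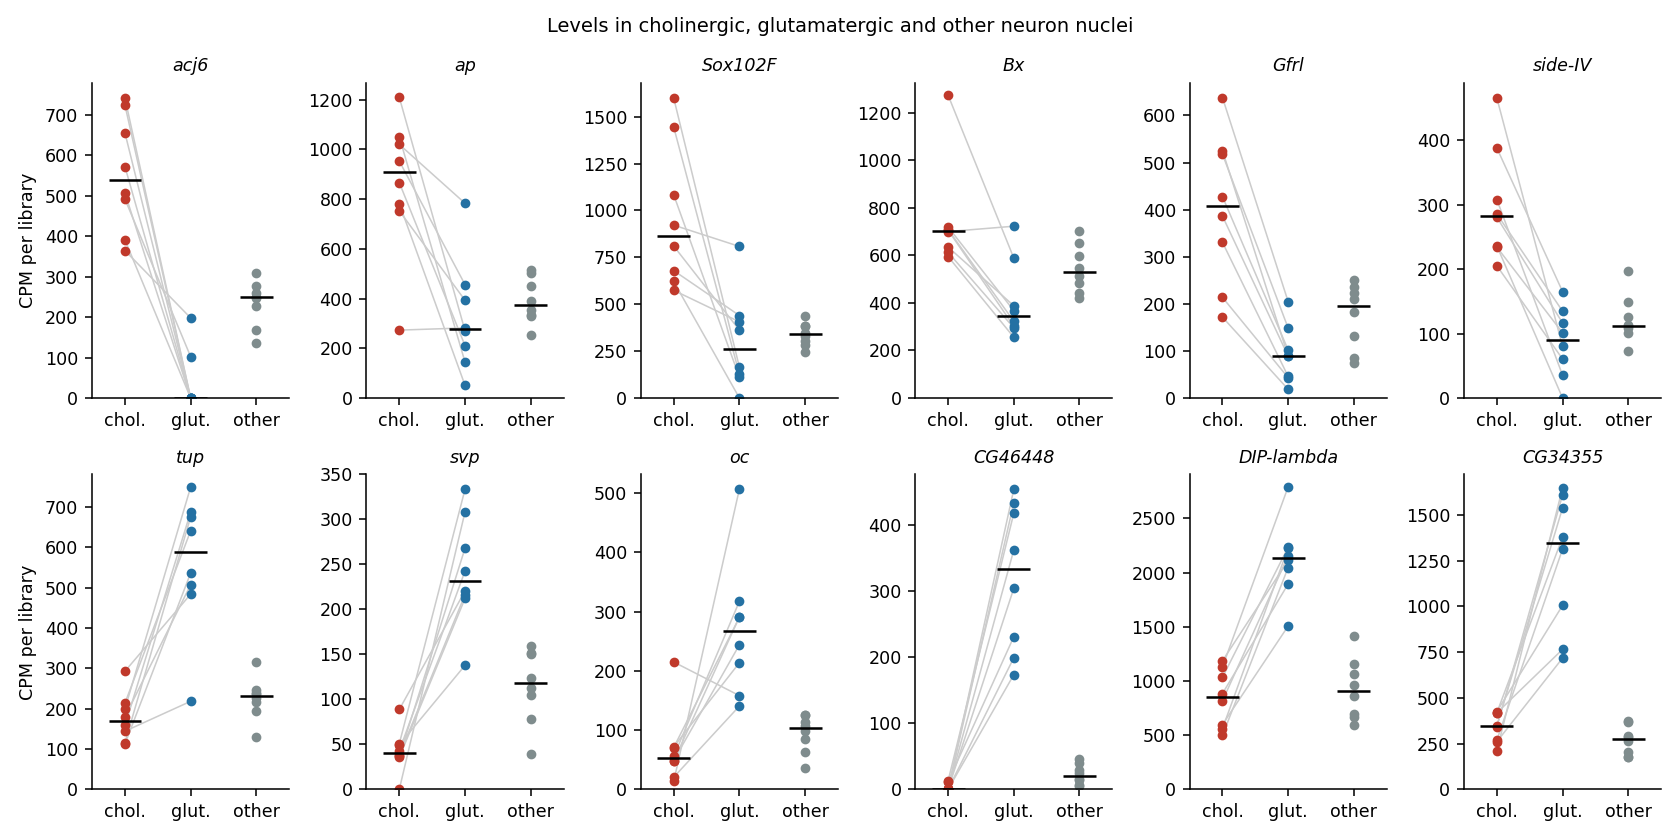
CPM of 12 genes in each library's cholinergic (red), glutamatergic (blue) and other neuron nuclei (grey); points are libraries, grey lines join the 2 groups of 1 library and black bars are medians. The upper row holds genes called higher and the lower row genes called lower in cholinergic nuclei, and *acj6* was at 0 in 6 of 8 glutamatergic sums.

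The list of neuronal transcription factors held 108 genes, among them some that code for RNA-binding proteins, such as *shep*, *Imp* and *Syp*. Of the 108 genes 42 were tested, with 3 higher, 4 lower and 35 not past the test, where 2.19% of all genes passed. At an unadjusted p below 0.05 were 20 of the 42, against 132 of all 1232 genes. The members went both ways, from -2.31 to 3.83, with a median log2 fold change of 0.058, against -0.0051 for all genes. Its 4 most abundant members outside the calls did not pass. *pros*, a homeodomain factor of differentiating neurons, was at 5942, 9288 and 16280 CPM in cholinergic sums, against 6955, 8323 and 15530 CPM in glutamatergic sums (0.076, SE 0.17, adjusted p = 0.938). *shep* and *mamo* were at log2 fold changes of -0.24 (SE 0.11) and -0.22 (SE 0.087), and *br*, the ecdysone-induced Broad factor, at 0.34 (SE 0.14), each with an adjusted p from 0.406 to 0.444. All 3 had an unadjusted p below 0.05. *mamo* was lower in cholinergic nuclei in 7 of 8 libraries and *br* higher in 7 of 8, with *br* called without the low-count filter (adjusted p = 0.00205). Of the motor neuron list, which shares *tup*, 3 of 10 genes were tested. Named after their values were seen, *Lim3* had a log2 fold change of -0.60 (SE 0.27, adjusted p = 0.444) and *vvl* one of 0.98 (SE 0.32, adjusted p = 0.20). The Hox genes *Antp* and *Ubx*, which set segment identity, were at -0.39 (SE 0.18) and 0.49 (SE 0.25), and neither passed the test.

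Some cell surface proteins of the immunoglobulin families that neurons use to recognise partners were called, in both directions. Dpr proteins bind DIP proteins, and Beat proteins bind Side proteins, across neighbouring cells. Of the 53 members found in the files 27 were tested, with 3 higher, 3 lower and 21 not past the test, where 2.19% of all genes passed. The median was 0.032, and 11 were at an unadjusted p below 0.05. *side-IV* was at 205, 283 and 466 CPM in cholinergic sums, against 0, 90.8 and 165 CPM in glutamatergic sums (1.79, SE 0.30, adjusted p = 0.00469). Within cluster 6 *side-IV* was at 649 CPM in cholinergic and 140.5 CPM in glutamatergic nuclei, but at 30 and 22 CPM in cluster 10. *side-VIII* was at 431, 661 and 992 CPM in cholinergic sums, against 86.2, 264 and 382 CPM in glutamatergic sums (1.49, SE 0.27, adjusted p = 0.00901). Neither gene's ranges overlapped between the groups. The *side-VIII* call was lost without cluster 6 and with cluster as a term, and its level was 1136 CPM in cholinergic and 64.4 CPM in glutamatergic nuclei of cluster 6 but 255 and 307 CPM in cluster 10. *dpr8* was at 430, 827 and 1174 CPM in cholinergic sums, against 145, 469 and 705 CPM in glutamatergic sums (0.90, SE 0.17, adjusted p = 0.0142, and 0.0594 without replicate 2). Its call was also lost without cluster 6, with cluster as a term, without the library block and with a threshold of 1.5 counts. In cluster 10 *dpr8* was at 302 CPM in cholinergic and 426 CPM in glutamatergic nuclei.

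*DIP-lambda* was at 499, 850 and 1186 CPM in cholinergic sums, against 1507, 2134 and 2792 CPM in glutamatergic sums (-1.39, SE 0.14, adjusted p = 6.55e-05). Its lowest glutamatergic sum was above its highest cholinergic sum. *side-II* was at 179, 603 and 1053 CPM in cholinergic sums, against 462, 1253 and 2309 CPM in glutamatergic sums (-1.03, SE 0.20, adjusted p = 0.0126), with overlap but the same sign in 8 of 8 libraries. The *side-II* call was lost without cluster 6, without the library block and with a threshold of 1.5 counts. It was at 175 CPM in cholinergic and 1747 CPM in glutamatergic nuclei of cluster 6, but at 525 and 683 CPM in cluster 10. *beat-Ia*, the Beat protein that motor axons use to leave their bundle and the known receptor of Sidestep, was at 99.4, 184 and 330 CPM in cholinergic sums, against 147, 423 and 830 CPM in glutamatergic sums (-1.24, SE 0.28, adjusted p = 0.0305). Its call was lost without replicate 2, 4, 5 or 7 (adjusted p up to 0.109, without replicate 5). Of the family members that did not pass, *side-III* (0.81, SE 0.23, adjusted p = 0.107) and *beat-VI* (0.75, SE 0.23, adjusted p = 0.129) are named after their values were seen.

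Other surface and adhesion genes were few. *Gfrl*, the fly relative of vertebrate GDNF family receptors, was at 172, 407 and 638 CPM in cholinergic sums, against 18.4, 89.0 and 205 CPM in glutamatergic sums (2.11, SE 0.19, adjusted p = 3.54e-05). It was higher in 8 of 8 libraries, although the ranges met at their ends. *mew* codes for an integrin alpha subunit that binds laminin, and *rhea* for talin, which ties integrins to the actin cytoskeleton. *mew* was at 184, 373 and 574 CPM in cholinergic sums, against 24.2, 146 and 347 CPM in glutamatergic sums (1.29, SE 0.27, adjusted p = 0.0206, and up to 0.0679 without replicate 5, with the call also lost without 3, 6 or 8). *rhea* went the other way, at 192, 318 and 479 CPM in cholinergic sums, against 200, 1553 and 3149 CPM in glutamatergic sums (-1.97, SE 0.40, adjusted p = 0.0176). Its glutamatergic values were uneven, with 230 CPM in replicate 3 and 200 CPM in replicate 4 but 2913 and 3149 CPM in replicates 1 and 8. *rhea* was held by similar shares of nuclei, 26.9% of cholinergic and 29.86% of glutamatergic nuclei. The higher glutamatergic sums are therefore not a trait shown for glutamatergic nuclei in general. How the *rhea* counts were spread over single nuclei was not tested. The *rhea* call was lost without replicate 2, 5 or 8 (adjusted p up to 0.0893, without replicate 2). Of the axon guidance list, 43 of 54 genes were tested and 0 passed, with 8 at an unadjusted p below 0.05 and none called by DESeq2. *kirre* (0.71, SE 0.18) and *rst* (0.69, SE 0.18), a pair of related adhesion proteins named after their values were seen, both had an adjusted p of 0.0664.

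The largest difference of all was in *CG46448*, a short protein-coding gene whose role is not given here. Its rounded counts summed to 3 in all cholinergic nuclei and to 137 in all glutamatergic nuclei. Per unit of depth this was 91.8 times more in glutamatergic nuclei (exact 95% interval 30.8 to 451, for counting error only). It was at 0, 0 and 12.8 CPM in cholinergic sums, against 173, 333 and 454 CPM in glutamatergic sums (-6.09, SE 0.40, adjusted p = 1.08e-06), without overlap. *CG46448* lies on arm 2L from 2391660 to 2392105 on the plus strand. That is 8189 bases before *VGlut*, on the same strand, and the annotation holds 0 genes between them, so this gene and the selection gene are direct neighbours. Whether its reads belong to *VGlut* transcripts was not tested. *CG46448* was held by 27.2% of glutamatergic nuclei, 0.439% of cholinergic nuclei, 42.5% of the 40 nuclei that held both transmitter markers (17 nuclei), 1.16% of nuclei that held neither and 0.0711% of nuclei outside the neuron clusters.

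A second neighbouring pair was lower in cholinergic nuclei. *lncRNA:CR44206*, a noncoding RNA whose span holds the microRNA gene *mir-184*, and *lncRNA:CR45312* lie 17016 bases apart on the minus strand of arm 2R, with 1 gene (*CG17048*) between them. *lncRNA:CR45312* was at 20.5, 76.6 and 659 CPM in cholinergic sums, against 647, 2054 and 3608 CPM in glutamatergic sums (-3.54, SE 0.53, adjusted p = 0.00238). Cholinergic values were spread over libraries, and the ranges met only through replicate 5 (659 CPM in cholinergic) and replicate 1 (647 CPM in glutamatergic). *lncRNA:CR44206* was at 19.4, 62.8 and 157 CPM in cholinergic sums, against 140, 476 and 758 CPM in glutamatergic sums (-2.61, SE 0.26, adjusted p = 5.39e-05). Of the glutamatergic nuclei 86 held *lncRNA:CR45312*, 81 held *lncRNA:CR44206* and 55 held both. *lncRNA:CR45312* was at 159 CPM in cholinergic and 5326 CPM in glutamatergic nuclei of cluster 6, and at 33 and 427 CPM in cluster 10. In cluster 25 the order was reversed for *lncRNA:CR45312* (654 and 354 CPM) and for *lncRNA:CR44206* (177 and 148 CPM). Both calls were lost with a threshold of 1.5 counts, and that of *lncRNA:CR45312* also without cluster 6.

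The remaining calls lower in cholinergic nuclei were *CG34355*, *CG43689*, *msi* and *bru3*. *CG34355* was at 212, 345 and 425 CPM in cholinergic sums, against 717, 1345 and 1648 CPM in glutamatergic sums (-1.87, SE 0.21, adjusted p = 0.000142), and was held by 23.7% of cholinergic and 60.9% of glutamatergic nuclei. The groups did not overlap, and *CG34355* was called in 22 of 22 refits. It is 1 of 7 genes called in every refit that tested them. *msi* (Musashi) and *bru3* (a CELF-type protein) code for RNA-binding proteins. They were abundant in both groups, and their differences were small. *msi* was at 1863, 2219 and 2463 CPM in cholinergic sums, against 2477, 3375 and 4936 CPM in glutamatergic sums (-0.71, SE 0.12, adjusted p = 0.00479). *bru3* was at 3115, 3697 and 5551 CPM in cholinergic sums, against 3897, 5788 and 8080 CPM in glutamatergic sums (-0.61, SE 0.14, adjusted p = 0.0402, and up to 0.127 without replicate 8). *CG43689* had a log2 fold change of -1.32 (SE 0.26, adjusted p = 0.0142, and 0.0658 without replicate 5).

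Higher in cholinergic nuclei were also *eys*, *ko* and *Jupiter*. *eys*, an extracellular proteoglycan known from the photoreceptor lumen and from mechanosensory organs, was at 58.2, 240 and 491 CPM in cholinergic sums, against 0, 103 and 204 CPM in glutamatergic sums (1.23, SE 0.25, adjusted p = 0.0196, and 0.0737 without replicate 5). It was the 1 member of 10 sensory neuron markers with enough counts for the test. Of the others, *iav*, *ppk* and *Ir25a* were at 0 in both groups. *nompC* had 1.98 corrected counts in cholinergic and 0.974 in glutamatergic nuclei, and *Piezo* had 127 and 32.7. Whether sensory neurons are among the nuclei was not tested. *Jupiter*, a microtubule-binding protein, was at 960, 1277 and 1794 CPM in cholinergic sums, against 630, 866 and 982 CPM in glutamatergic sums (0.58, SE 0.14, adjusted p = 0.0429). *ko* had a log2 fold change of 1.34 (SE 0.31, adjusted p = 0.0422). The calls of *ko* and *Jupiter* were lost in 6 and 5 of the 8 refits without 1 library, with adjusted p up to 0.117 (without replicate 2) and 0.141 (without replicate 8).

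Set beside other neurons, genes of both directions were mostly higher in 1 group and lower in the other. Of the 12 genes higher in cholinergic nuclei, 11 had a cholinergic median above, and 11 a glutamatergic median below, that of other neurons. Of the 15 genes lower in cholinergic nuclei, 15 had a glutamatergic median above that of other neurons, and 10 a cholinergic median below it. *mew* was the exception among the 12 on the cholinergic side, at 373 CPM in the median cholinergic sum and 390 CPM in that of other neurons. These comparisons were not tested, since other neurons also differ in depth and hold most nuclei of clusters 17 and 20. They include the 40 nuclei that held both markers and may include nuclei of either kind whose marker was not caught. Such a mixed reference tends to lie between the groups for genes called for their difference, so these counts are no further support.

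Several of the differences were found mainly in 1 cluster. Within a cluster, counts were summed over all libraries, so these values have no error, and because clusters were made from the same expression values the differences between clusters were not tested. Over clusters 6, 10 and 25, 14 of the 27 genes had the sign of the main test in all 3. Cluster 6 had that sign for 26 genes, cluster 10 for 23 and cluster 25 for 18. *acj6* was at 631 CPM in cholinergic and 50.2 CPM in glutamatergic nuclei of cluster 6, and at 740 and 52.1 CPM in cluster 10. *svp* (31.9 and 299 CPM in cluster 6, 45.0 and 240 CPM in cluster 10, 28.4 and 161 CPM in cluster 25) was lower in cholinergic nuclei of each. *tup*, in contrast, was at 125 CPM in cholinergic and 1245 CPM in glutamatergic nuclei of cluster 6, but at 223 and 221 CPM in cluster 10. *Sox102F* was at 2025 CPM in cholinergic and 28.0 CPM in glutamatergic nuclei of cluster 6, but at 652 and 526 CPM in cluster 10. *ap* was likewise at 2176 and 487 CPM in cluster 6 and at 192 and 257 CPM in cluster 10. *rhea* had the reverse pattern, with 315 and 277 CPM in cluster 6 but 358 and 2520 CPM in cluster 10 and 279 and 2322 CPM in cluster 25. *DIP-lambda* was lower in cholinergic nuclei of cluster 6 (691 and 2342 CPM) and cluster 10 (1189 and 2893 CPM), but not of cluster 25 (765 and 296 CPM). Without cluster 6, 3 genes were higher and 2 lower, of 941 tested. Of the called genes, 17 were tested in that fit and 4 stayed past the threshold, with the sign kept by all 17. *tup*, *DIP-lambda* and *msi* were among those lost.

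**Figure D4:**
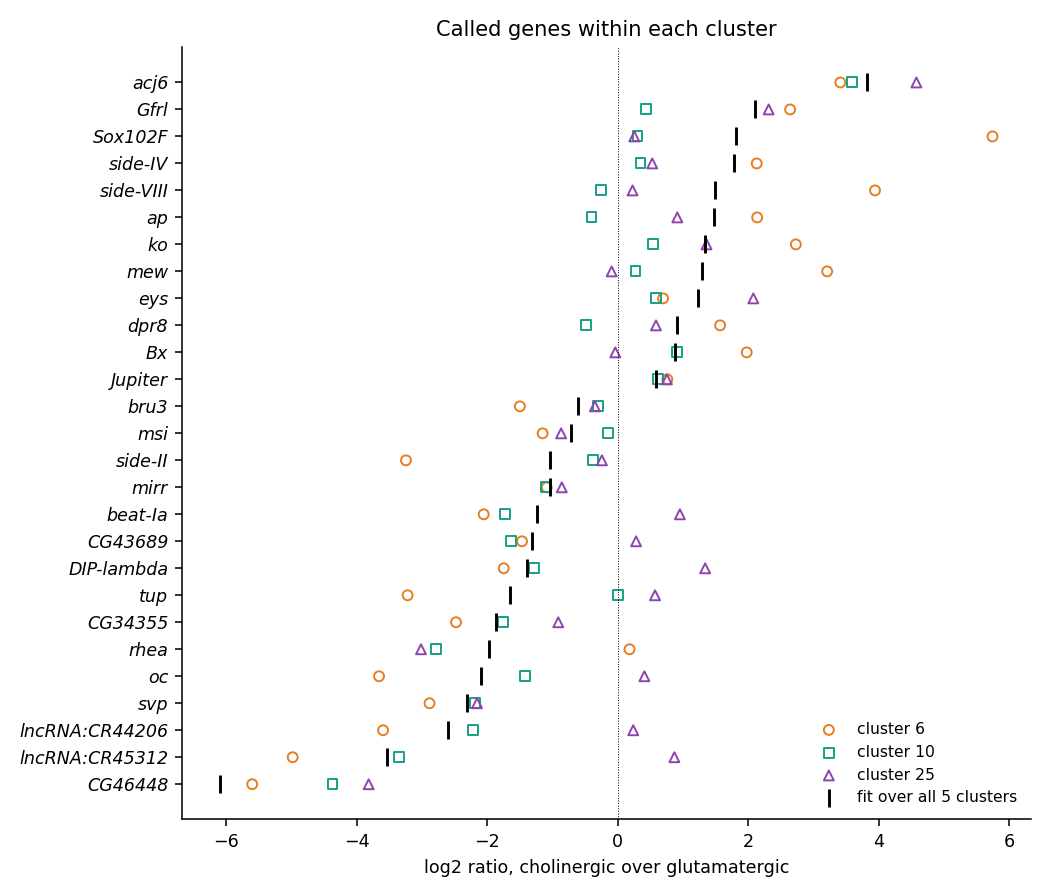
The 27 called genes, with the log2 ratio of cholinergic over glutamatergic CPM within clusters 6, 10 and 25 (10 CPM added to both, counts summed over libraries) and the log2 fold change of the fit over all 5 clusters (black bars). *acj6*, *svp* and *CG46448* lay on 1 side of 0 in each cluster, whereas *tup*, *ap* and *Sox102F* stood apart in cluster 6.

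None of the tested genes of the vesicle release machinery passed the test. Of the synaptic vesicle and active zone list, 19 of 30 genes were tested and 0 passed, with 0 at an unadjusted p below 0.05 and 0 called by DESeq2. Their log2 fold changes lay between -0.22 and 0.18, with a median of 0.013. *unc-13*, which primes vesicles for release, was at 3053, 3678 and 3903 CPM in cholinergic sums, against 3003, 3649 and 4769 CPM in glutamatergic sums (-0.080, SE 0.093). *brp*, the scaffold of the active zone, was at 1151, 2252 and 2510 CPM in cholinergic sums, against 1290, 2143 and 2710 CPM in glutamatergic sums (-0.025, SE 0.14). *Snap25* (-0.076, SE 0.095), *nSyb* (0.12, SE 0.16) and *Syt1* (0.10, SE 0.16), which act in vesicle fusion, were equally close to 0. The median standard error over all genes tested was 0.19, so smaller differences than those called above could not be resolved for most genes.

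Receptors for both transmitters were found in both groups. Of 10 nicotinic acetylcholine receptor subunits 7 were tested and 0 passed (1 at an unadjusted p below 0.05, 0 by DESeq2), with a median of 0.028. *nAChRalpha6* was at 2149, 3995 and 5830 CPM in cholinergic sums, against 2247, 4783 and 6844 CPM in glutamatergic sums (-0.25, SE 0.12, adjusted p = 0.494). *nAChRalpha1* had the lowest adjusted p, with 450, 743 and 1109 CPM in cholinergic sums, against 557, 1135 and 1502 CPM in glutamatergic sums (-0.48, SE 0.14, adjusted p = 0.123), and was lower in cholinergic nuclei in 7 of 8 libraries. Without replicate 3 its adjusted p was 0.0275. *mAChR-A*, a muscarinic receptor, had a log2 fold change of -0.54 (SE 0.23, adjusted p = 0.417). *mAChR-B*, another muscarinic receptor, was below the low-count filter, with 58 counts in cholinergic and 9 in glutamatergic nuclei (1.76 without the filter, adjusted p = 0.0459). Of 15 glutamate receptor genes 5 were tested and 0 passed (2 at an unadjusted p below 0.05, 0 by DESeq2). *GluClalpha*, the glutamate-gated chloride channel, was at 609, 1086 and 1536 CPM in cholinergic sums, against 602, 1349 and 3287 CPM in glutamatergic sums (-0.48, SE 0.20, adjusted p = 0.406). *GluRIB* was at 0.93 (SE 0.34, adjusted p = 0.315). Both tested GABA receptor genes, *Rdl* (0.47, SE 0.19) and *GABA-B-R1* (-0.16, SE 0.17), had an adjusted p of 0.406 or more, with 1 at an unadjusted p below 0.05. *Rdl* had an adjusted p of 0.0331 without replicate 1.

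Ion channel genes also had 0 members past the test, with 17 of 30 tested, 2 at an unadjusted p below 0.05 and a median of 0.16. *Sh*, the Shaker potassium channel, came nearest, at 3066, 4085 and 5169 CPM in cholinergic sums, against 1392, 2839 and 4510 CPM in glutamatergic sums (0.61, SE 0.16, adjusted p = 0.0614). Cholinergic was higher in 7 of 8 libraries. *Sh* was called in 5 of 22 refits, among them DESeq2 and the fit without replicate 1 (adjusted p = 0.0021). *para*, the voltage-gated sodium channel, was at 283, 1082 and 2300 CPM in cholinergic sums, against 0, 685 and 2258 CPM in glutamatergic sums (0.86, SE 0.35, adjusted p = 0.406, and 0.0294 without replicate 1). *cac*, the presynaptic calcium channel, was at 0.16 (SE 0.17). Without the low-count filter, 4 of 28 channel genes were higher in cholinergic nuclei and 0 lower. *Sh*, *para* and *SLO2* were among the 4. *SLO2*, a potassium channel, had 334 counts in cholinergic and 80 in glutamatergic nuclei (adjusted p = 7.77e-06 in that fit). In glutamatergic nuclei, 46.8 corrected counts of *SLO2* came from replicate 1. Glutamatergic was higher there (963 against 362.5 CPM) and in replicate 3 (85.5 against 82.0 CPM).

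**Figure D5:**
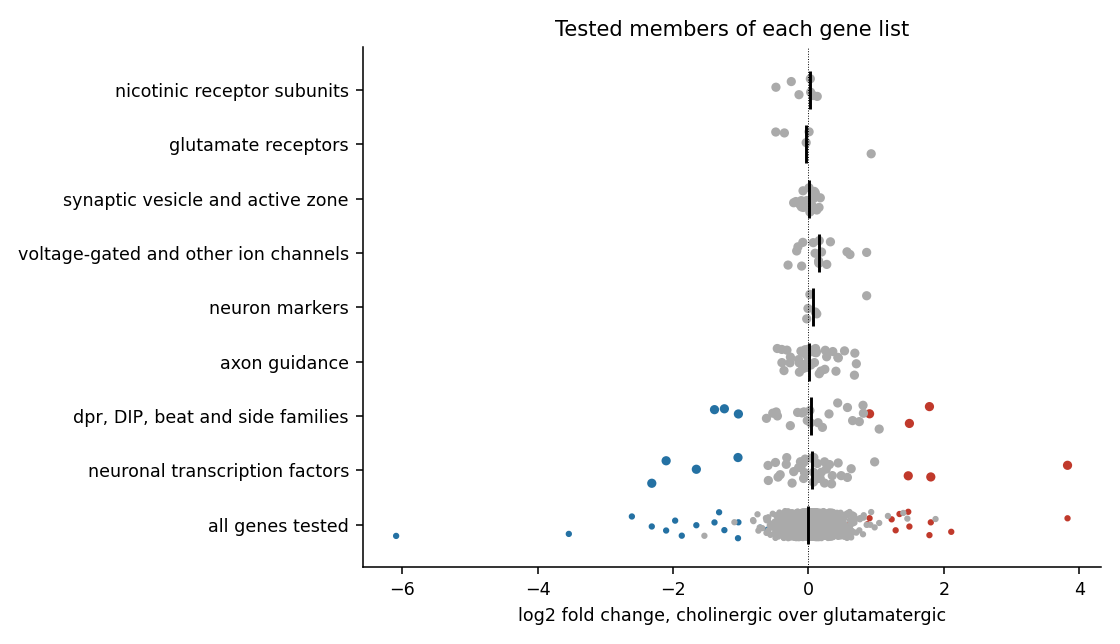
log2 fold change, cholinergic over glutamatergic, of the tested members of 8 gene lists and of all 1232 genes; red and blue points passed the test (higher and lower in cholinergic nuclei), black bars are medians and the vertical scatter has no meaning. Members past the test are found in the transcription factor list (3 higher, 4 lower) and in the dpr, DIP, beat and side families (3 higher, 3 lower) but in none of the other 6 lists drawn.

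Genes of other transmitters and of peptides had too few counts for the main test, and their counts are given instead. *ChT*, the choline transporter, had 42 rounded counts in cholinergic and 7 in glutamatergic nuclei. *Gad1*, which makes GABA, had 20 in cholinergic nuclei, over 7 of 8 libraries, and 0 of 428395 UMIs in glutamatergic nuclei, which allows up to 3 counts. *VGAT*, the GABA transporter of vesicles, had 56 and 28 counts, not scaled to the 861255 UMIs of the cholinergic group. Scaled, it was at 33 to 135 CPM in cholinergic sums and at 36 to 121.5 CPM in glutamatergic sums. *Vmat*, the vesicle transporter of monoamines, had 1 count in cholinergic and 17 in glutamatergic nuclei, 34.2 times more per unit of depth (exact 95% interval 5.36 to 1428), from 3 of 8 libraries. *sNPF*, a neuropeptide known from cholinergic neurons of the mushroom body, had 41 counts in cholinergic nuclei and 1 in glutamatergic nuclei, 20.4 times more per unit of depth (3.46 to 825). Its cholinergic sums reached from 0 to 173 CPM, so single libraries carried most of it. The acetylcholine-degrading enzyme *Ace* passed the filter, with a log2 fold change of -0.083 (SE 0.35).

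Without the filter on low counts the test called 95 genes higher and 30 lower, of 10555. The median log2 fold change of all genes in that fit was 0.15, against -0.0051 with the filter, and its values are to be read against that shift. Its adjusted p-values were also far smaller for some genes of uneven levels. They were 7.75e-21 against 0.0176 in the main test for *rhea*, and 4.88e-20 against 0.0429 for *Sox102F*. The adjusted p-values of that fit are therefore not read as a measure of the spread between libraries, including those of *br*, *mAChR-B* and *SLO2* above. Of the called genes, 53 were not in the main test. For 8 of the 53, most of the counts came from 1 of the 16 sums. The members of the gene lists among the 53 were chosen after these values were seen. Transcription factors again went both ways. *sim*, *bsh*, *tey* and *Fer1* were higher in cholinergic nuclei (109, 33, 52 and 19 rounded counts, against 10, 0, 3 and 0 in glutamatergic nuclei), and *Ets65A*, *hbn* and *fd59A* were lower (33, 34 and 2 counts, against 115, 87 and 14). *sim*, a bHLH-PAS factor known from the midline of the nervous system, was at 55.3, 109 and 290 CPM in cholinergic sums, against 0, 0 and 149 CPM in glutamatergic sums, and was higher in 8 of 8 libraries. *hbn*, a homeodomain factor of the brain, was at 0, 12.1 and 119 CPM in cholinergic sums, against 39.9, 201 and 363 CPM in glutamatergic sums, and was lower in cholinergic nuclei in 8 of 8 libraries. *Ets65A* was at 0, 36.4 and 63.4 CPM in cholinergic sums, against 41.1, 239 and 612 CPM in glutamatergic sums. *DIP-epsilon* had 128 counts in cholinergic and 17 in glutamatergic nuclei.

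Markers of other cell types had overlapping summed levels in both groups. Summed levels of the 4 fat body markers were 660 to 2494 CPM in cholinergic and 593 to 4221 CPM in glutamatergic sums, with 0 of 4 past edgeR's test, 1 at an unadjusted p below 0.05 and 0 called by DESeq2 (log2 fold changes -0.63 to -0.27). The 8 muscle markers summed to 623 to 1044 and 517 to 1158 CPM, and the 7 glia markers to 10.8 to 138 and 0 to 224 CPM, with 1 of the 7 at 0 in all cholinergic and 3 in all glutamatergic nuclei. For neuroblast markers the sums were 106 to 904 and 89.5 to 843 CPM. Of the 9 wing and leg disc markers, the 1 past the test was *ap*, described above. The part of these cells in the results was not tested. Same-strand neighbours overlap *acj6*, *svp*, *Bx*, *dpr8*, *rhea*, *mew*, *bru3* and *ko*, and reads in such overlaps could be assigned to either gene.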

How the data were processed

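Nuclei of 8 samples were sequenced with a droplet 3′ kit. According to the submitters' processing notes the authors used Cell Ranger (version 7.1.0) with build BDGP6, and per the paper's methods they removed ambient RNA with DecontX, removed low-quality nuclei and doublets, and clustered the nuclei. The deposited matrix therefore holds estimated counts that the authors had corrected (expected counts, not scaled), and a deposited table gives clusters. No doublet caller was run again. Libraries were taken from the number at the end of each barcode, which the files do not pair with sample titles. A supplementary table names part of the libraries with another letter than the labels do, and what that letter stands for is not given in the sources used here, so a shared origin of all libraries rests on the labels.

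Corrected counts were summed per group and library, rounded and tested with edgeR 4.0.16 (filterByExpr, TMM, quasi-likelihood test, library as a block) in R 4.3.3, with DESeq2 1.42.0 as an alternative. CPM are counts scaled to 1000000 over all genes other than the 3 selection genes, and a nucleus held a gene at 0.5 counts or more. Both sums of a replicate come from 1 library. Deviations of sums with the same number correlated at 0.138 to 0.496 (median 0.347), those of other numbers at a median of -0.038. Deviations were from each group's mean over libraries, which by itself pulls the values of other numbers down. The best correlation was with the same number for 6 of the 8 libraries. The pairing rests on the barcode number. The tests were tried on simulated data.

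Named genes are the 15 largest log2 fold changes in each direction among genes with an adjusted p below 0.05 and the same sign in at least 7 of 8 libraries, every list member past the threshold, up to 4 further abundant members of transmitter, receptor, vesicle, channel, peptide and transcription factor lists, and *ChT*, *Ace*, *Gad1*, *VGAT* and *Vmat*. The nuclei, lists and tests were chosen with earlier results of these data known. Coordinates come from Ensembl release 115 (BDGP6.54), where 12066 of 12610 symbols matched. P-values of the main test measure the spread between libraries of pooled larvae, and intervals cover counting error only. P-values of the fit without the low-count filter are not read in that way. Python 3.11.15 (pandas 2.3.3, scipy 1.17.1, matplotlib 3.10.9) was used.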

Additional observations from a re-analysis of the deposited data

Results flagged for a closer look

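Single libraries lay apart from the other 7 of their group in 8 of 58 sets of values examined (levels of the 27 called genes, nuclei and depth in both groups). The limit used gives about 1 in 20 for normally distributed values. These values were not transformed, and the genes were picked by the test on the same sums, so 8 of 58 was not read as an excess. In cholinergic sums, *Bx* was at 1273 CPM in replicate 8 (595 to 719 in the others), *CG43689* at 311 CPM in replicate 8 (30.7 to 163), *oc* at 215 CPM in replicate 1 (13.3 to 71.7) and *ko* at 303 CPM in replicate 7 (168 to 229). In glutamatergic sums, *side-II* was at 2309 CPM in replicate 6 (462 to 1295 in the others). Replicate 2 had the deepest nuclei in both groups, with a median of 1427 UMIs in cholinergic nuclei (857 to 1063 in the others) and 1273 UMIs in glutamatergic nuclei (852 to 1048). Replicate 8 had the fewest glutamatergic nuclei, 19, against 39 to 57.

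Outside the comparison, 40 neuron nuclei (0.98%) held *VGlut* together with *VAChT* or *ChAT* at 0.5 counts or more, a description drawn from the selection genes themselves. Of these 31 were in cluster 10, 2.85% of its nuclei, and their median depth was 1304 UMIs, against 1017 and 1020 in the cholinergic and glutamatergic groups. Whether they are doublets was not tested.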

How the results depend on the processing

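Counts of calls moved with the method, the filter and the nuclei or libraries left out. Over 22 alternatives the 27 called genes gave 524 values, of which 426 remained past the threshold, 98 did not and 0 changed sign. The fewest stayed with nuclei at 1.5 counts or more (3 of the 18 tested) and without cluster 6 (4 of the 17 tested). Genes higher in cholinergic nuclei numbered 20 with DESeq2, 1 with nuclei at 1.5 counts or more (268 cholinergic and 192 glutamatergic nuclei), 5 with cluster as a term, 95 without the low-count filter, and 3, 7 and 19 without clusters 6, 10 and 25. Genes lower in cholinergic nuclei numbered 3 at 1.5 counts or more, 30 without the filter, and 2 and 5 without clusters 6 and 10. List members numbered 7 higher and 7 lower in the main test. Higher were 11 with DESeq2, 1 at 1.5 counts, 1 with cluster as a term, 36 without the filter, and 1 and 12 without clusters 6 and 25. Lower were 1 at 1.5 counts, 4 with cluster as a term, 11 without the filter, 4 with nuclei thinned to 500 UMIs, and 0 and 2 without clusters 6 and 10. Without a library, calls ranged from 7 to 31 higher and 9 to 21 lower, and list members from 4 to 15 higher and 4 to 10 lower. Without the replicate block, so with the pairing by library ignored, 8 genes were higher and 12 lower, and list members were 4 higher and 4 lower. Fewer genes passed the filter in several of these (487 with cluster as a term, 529 thinned, 770 at 1.5 counts, 941 without cluster 6), and calls also moved over the same 1232 genes. The causes were not tested. RLE size factors, a limit above 0.1 counts, barcodes of 1 library and leaving out cluster 17 or 20 kept each count within 1.5 times. Of 629 values of genes not called, 16 passed the threshold and 70 changed sign while passing in neither. Depth limited the test to genes with enough counts in sums of 21925 to 165549 UMIs.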
